A study of Caenorhabditis elegans with 16 samples.

Results

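H3K9me3, the trimethylated form of lysine 9 of histone H3, was mapped by chromatin immunoprecipitation sequencing (ChIP-seq) in early Caenorhabditis elegans embryos. These embryos lacked a working MET-2. Of the 500 bp windows over 2-fold above input, 45.5% lay in 214 scattered runs of at least 5 kb, called domains. The domains had a median length of 7 kb, bounded from below by that minimum, and lay mostly in the middle of the autosomes. Over all 1820 runs of such windows, of any length, the median length was 1 kb. With other settings the number of domains ran from 51 to 356. The 2 ChIP samples and the 2 matching input samples of H3K9me3 in met-2 were 4 of the 16 samples of the series. Of 198087 windows of 500 bp, 191140 were used, those that reached 20 counts in all 4 inputs of the series. The embryos carried the allele met-2(n4256) on chromosome III, were collected before the bean stage and came from worms kept at 20 °C. By their labels, the other samples were H3K9me2 in met-2(n4256) and H3K9me2 and H3K9me3 in set-25(n5021) embryos. They were of the same stage and temperature, each with its own input. The set-25 label of the H3K9me3 libraries is questioned below. Chromatin came from whole embryos, so each value is an average over their cells. No wild-type sample was analysed here, so that the level left in met-2 could not be set against a normal one. The labels give 2 biological replicates per group, whereas the counts come in 1 column per group. The column of the H3K9me3 ChIP in met-2 has a name ending in 1 and the other 7 names carry no number, so that each value may come from 1 sample or from a sum of 2. No replicate error, test or p-value is therefore given, and the 95% intervals are exact (Clopper-Pearson) intervals of the ChIP share that cover counting error only.

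MET-2 is the worm relative of SETDB1 and adds the first methyl groups to H3K9, giving H3K9me1 and H3K9me2. SET-25 is the enzyme on which H3K9me3 in worm embryos depends. Both marks belong to heterochromatin, which in worms covers repeats, transposons and silent genes and is denser on the arms of the autosomes than in their gene-rich centres.

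The H3K9me3 ChIP library of met-2 held 58645635 counts and its input 114221896, against 19732750 to 49395989 counts in the other 6 libraries. The median window held 204 counts (quartiles 137 and 296) in the ChIP library and 488 counts (quartiles 337 and 725) in the input. The labelled genotype was looked for as a run of missing windows at III:8376501-8377500. The ChIP library held 6 counts there, against 449.4 expected from its flanks, and its input held 0 counts against 1224.8 expected, so both carried the gap of the met-2 deletion. The H3K9me3 input labelled set-25 lacked the same windows, with 2 counts against 607.9 expected. The H3K9me3 ChIP library with that label was also low there, with 15 counts against 139.5 expected. This library had no counts in 16520 of the kept windows, against 53 for the H3K9me2 ChIP in set-25, the next most. In the input for H3K9me2 in set-25, 513 counts against 571.9 expected were present. The H3K9me3 libraries with that label are therefore called by that label and nothing on set-25 is drawn from them. No source used here names the genome build, so positions are those of the counted windows, and no gene is assigned to any domain.

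The first question was how much H3K9me3 stood above the input. Enrichment is given as the log2 ratio of ChIP to input, each scaled to its library total (CPM) plus 0.1 CPM. The median was -0.35, below the input, and the quartiles were -0.67 and -0.02. The upper tail was long. The 95th percentile was 0.83, the 99th was 2.35 and the highest window reached 4.86. A log2 ratio above 0.5 was seen in 15347 windows, 8.03% of all, which held 32.9% of the ChIP counts and 9.48% of the input counts. Windows above a log2 ratio of 1, a 2-fold enrichment, are called enriched, which applied to 7830 windows or 4.1% of those kept. They held 26.6% of the ChIP counts and 5.72% of the input counts. A log2 ratio above 2 was seen in 2798 windows, 1.46% of all, which held 17.5% of the ChIP counts and 2.42% of the input counts. Above 3 there were 768 windows, 0.402% of all, with 8.14% of the ChIP counts and 0.759% of the input counts.

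**Figure D1:**
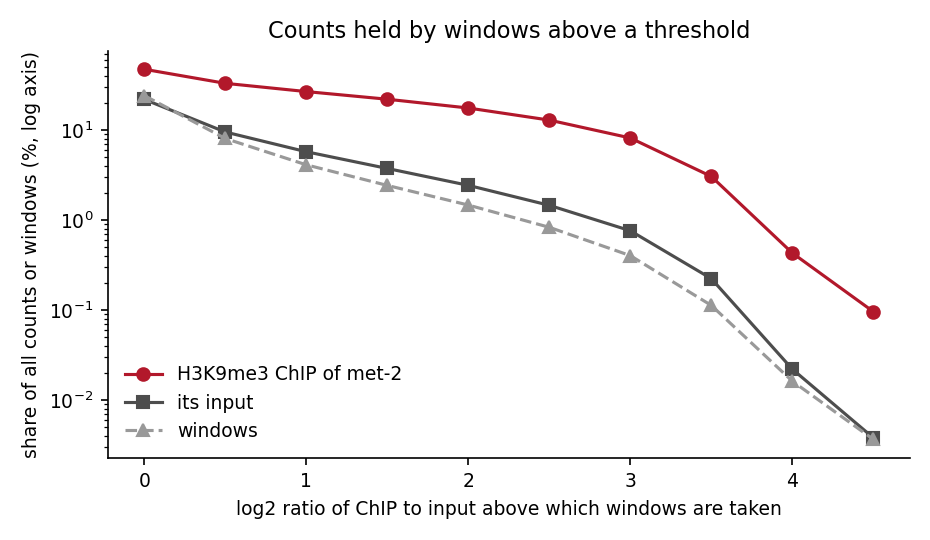
Share of all counts or windows (y axis, percent, log scale) in windows above a log2 ratio of ChIP to input (x axis), for the H3K9me3 ChIP library of met-2 (red), its input (dark grey) and the windows themselves (light grey, dashed). The ChIP line lies above the other lines at each threshold, with 26.6% of ChIP counts and 5.72% of input counts above a log2 ratio of 1.

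The top of the range came from very few places. Only 31 windows, on 5 chromosomes, lay above a log2 ratio of 4, and 7 windows, on V and II, above 4.5. The window V:6177001-6177500 had the highest ratio, 4.86, with 3149 ChIP counts and 200 input counts. A second place on V, V:10721501-10722000, had a ratio of 4.62 with 12652 ChIP counts and 990 input counts. On II the window II:10705501-10706000 reached 4.52 with 19828 ChIP counts and 1674 input counts. Both of these windows also held more input than the median window.

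Sparse windows were left out by the floor of 20 counts, and the windows just inside and outside it differed. The 1617 windows with 20 to 29 counts in their lowest input had a median log2 ratio of -0.06 and 13.2% of them were enriched. The 1538 windows with 10 to 19 counts, just outside the floor, had a median of 0.04 and 16.7% of them were above the threshold.

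Enriched windows were next joined into runs of neighbours. There were 1820 runs, of which 751 (41.3%) were single windows that together held 9.59% of the enriched windows. Another 543 runs had 2 to 4 windows and held 18.8% of the enriched windows, and 312 runs had 5 to 9 windows and held 26.1%. The 163 runs of 10 to 19 windows held 27.5% of the enriched windows and the 51 runs of 20 windows or more held 18.0%. Longer runs were also higher, with median log2 ratios of 1.17, 1.31, 1.67, 2.21 and 2.64 in these 5 classes, from single windows to runs of 20 or more. A window that is part of a long run had to pass the threshold on every side, so that this order is a description.

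Single windows lost the call more often than long runs when another input was used. The input of the H3K9me2 experiment, made from the same strain, called 10.2% of all windows and left 50.9% of the single windows above a log2 ratio of 1, 86.7% of runs of 2 to 4 windows and 96.2% of runs of 5 to 9. Of the runs of 10 to 19 windows it left 99.4% and of those of 20 or more 100%. The H3K9me3 library labelled set-25 was above 1 in 116 of the single windows, or 15.4%, against 7.11% of all kept windows. It was above 1 in 16 of the runs of 2 to 4 and in 1 run of 5 to 9, lengths for which no share over the genome was taken. It was above 1 in 0 runs of 10 windows or more. Of 17413 stretches of 10 windows laid across the genome, only 0.304% were above 1. The fall with run length is therefore not a result about these runs. Runs of at least 10 windows, 5 kb, are called domains below.

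**Figure D2:**
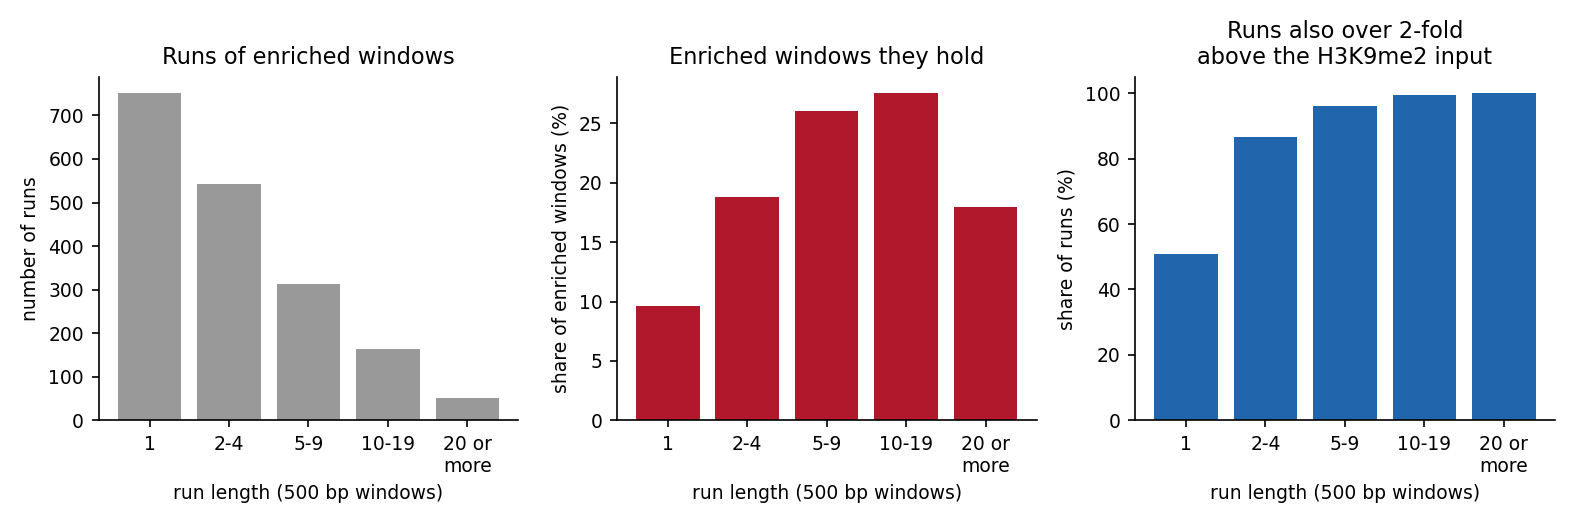
Runs of adjacent enriched windows of H3K9me3 in met-2 by length in 500 bp windows (x axes): number of runs (left, grey), percent of all enriched windows they hold (middle, red) and percent of runs that also stand over 2-fold above the H3K9me2 input of met-2 (right, blue). Single windows are the most numerous class with 751 runs, hold 9.59% of enriched windows, and 50.9% of them stay above the threshold with the other input, against 100% of the 51 longest runs.

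The 214 domains covered 1.783 Mb, 1.87% of the kept windows, and held 17.1% of the ChIP counts, 2.86% of the counts of their own input and 1.73% of those of the H3K9me2 input. They were short. Lengths ran from the minimum of 5 kb to 29 kb, with a median of 7 kb, quartiles of 5.625 and 9.5 kb, and 12.5 kb at the 90th percentile. From here on the level of a domain is the log2 ratio of its summed counts. It ran from 1.30 to 3.83 with a median of 2.33, a fold of 5.01, and quartiles of 1.95 and 2.77. The median width of the counting interval was 0.0598 and the widest was 0.103, both on the log2 scale, so that counting error was small beside the spread among domains. Longer domains tended to be higher, with Pearson's r of 0.28 and Spearman's rho of 0.31 over the 214 domains, which share 1 library and are not replicates. Domains end where the ratio falls to the threshold and their outer windows are lower, so that this relation too is a description.

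The 5 longest domains, with equal lengths ranked by level, all lay in chromosome centres, taken as the middle 50%, on 5 different autosomes. Those of II and III lay at 50.7% and 49.0% of the chromosome length from the left end. Those of I, V and IV lay at 27.0%, 29.4% and 68.5%, and with arms of 33.3% they would be arm domains. A further domain, III:5111501-5131000, was also 19.5 kb long and fell outside the 5 only by its lower level of 2.29. Left-out windows also shaped this list. In the left arm of II, 2 such windows, at 2.66 and 2.74, split II:1929501-1951000, of 21.5 kb, into 2 domains. The longest, II:7725001-7754000, was 29 kb with 127446 ChIP counts and 39760 input counts, a log2 ratio of 2.64 (95% interval 2.63 to 2.66). Its single windows ran from 1.14 to 3.44. The next, III:6746501-6773000, was 26.5 kb with 214766 ChIP counts and 49132 input counts, a log2 ratio of 3.09 (3.08 to 3.10). The longest of V, V:6138501-6162500, was 24 kb with 121846 ChIP counts and 33915 input counts, a log2 ratio of 2.81 (2.79 to 2.82).

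The other 2 were of equal length and differed in height. The domain I:4058001-4077500, of 19.5 kb, had 223685 ChIP counts and 41839 input counts, a log2 ratio of 3.38 (3.37 to 3.40). The domain IV:11973501-11993000, also 19.5 kb, had 191212 ChIP counts and 47076 input counts, a log2 ratio of 2.98 (2.97 to 3.0). The longest domain of X, X:3227501-3244000, was 16.5 kb with a log2 ratio of 2.89 (2.87 to 2.91) and lies outside the 5 longest.

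The 5 highest domains were shorter, at 6 to 11.5 kb, and 2 of them lay in right arms. The highest, V:8477001-8486500, was 9.5 kb with 154431 ChIP counts and 21084 input counts, a log2 ratio of 3.83 (3.81 to 3.86) or 14.3-fold. All of its windows were high, from 3.46 to 4.23. The windows on either side had been left out by the floor on input counts, so the run was cut there. The one before it held 2 counts of its own input, and the one after it was at 4.30. The domain X:7727001-7733500 of 6.5 kb had 96026 ChIP counts and 14951 input counts, a log2 ratio of 3.64 (3.62 to 3.67). In the right arm of V, V:17133501-17145000 of 11.5 kb had 213907 ChIP counts and 35162 input counts, a log2 ratio of 3.57 (3.55 to 3.58).

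Close to the right end of I, the domain I:14891001-14897000 of 6 kb reached 3.46 (3.43 to 3.49). The last of the 5, IV:8260501-8267000 of 6.5 kb, had 125518 ChIP counts and 22406 input counts, a log2 ratio of 3.45 (3.43 to 3.47). The lowest of all domains was X:9421501-9426500 of 5 kb at 1.30 (1.26 to 1.34), with 12465 ChIP counts and 9841 input counts.

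The input itself was raised inside the domains. Per window, the median domain held 36.0 CPM of ChIP, 7.60 CPM of its own input and 5.10 CPM of the H3K9me2 input, against medians of 3.48, 4.27 and 5.44 CPM over all kept windows. With the H3K9me2 input in place of its own, 213 of the 214 domains stayed above a log2 ratio of 1 (median 2.88), the exception being II:6538001-6546000 at 0.95. Of 17413 stretches of 10 windows laid across the genome, 4.03% were above 1 with the own input and 5.93% with the H3K9me2 input. With the sum of the 4 inputs 214 of 214 did (median 2.45), against 4.13% of the stretches. Over the median of the ChIP library, with no input at all, 214 of 214 did as well (median 3.37, lowest 1.90), against 9.89% of the stretches. All of these use the same ChIP counts and so say nothing of how another ChIP sample would behave.

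Enrichment sloped at the flanks of domains and still grew at the innermost distance read. Over the 428 domain edges, the last window outside had a median log2 ratio of 0.68 (385 kept windows) and the first inside 1.38, with the threshold of 1 between them by definition. Further in, the medians were 1.77 at 0.75 kb, 2.06 at 1.25 kb, 2.25 at 1.75 kb and 2.33 at 2.25 kb. Outside, at distances written as negative, they were 0.46 at -0.75 kb, 0.25 at -1.25 kb, 0.13 at -2.25 kb, -0.11 at -4.75 kb and -0.17 at -9.75 kb, so that the surroundings stood slightly above the median of all windows. The highest window of a domain lay at a median of 47.0% of its length (quartiles 32% and 67.6%, 5th and 95th percentiles 17.4% and 83.9%). Such a median would also come from places spread evenly along the domain, and runs end where the ratio falls to the threshold. No central place is read from it. The ChIP signal fell from the inside outward more than the input did: 37.3 CPM of ChIP at 2.25 kb inside, 14.6 in the first window inside and 6.85 just outside, against 7.36, 5.01 and 4.36 CPM of input at the same distances. At 43 of the 428 edges the neighbouring window had been left out for low input counts, and the run ended there whatever that window's level.

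**Figure D3:**
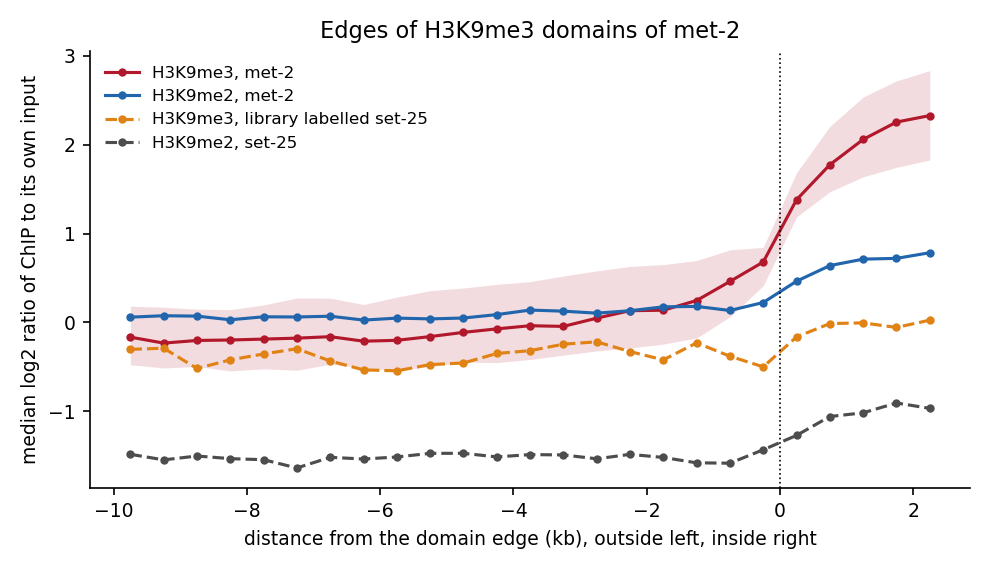
Median log2 enrichment, ChIP over own input (y axis), by distance in kb from the edges of the 214 H3K9me3 domains of met-2 (x axis, outside to the left, inside to the right), for H3K9me3 in met-2 (red, band from the lower to the upper quartile), H3K9me2 in met-2 (blue), the H3K9me3 library labelled set-25 (orange, dashed) and H3K9me2 in set-25 (grey, dashed). The H3K9me3 line of met-2 reaches 2.33 at 2.25 kb inside, against 0.68 in the last window outside, and the H3K9me2 line of met-2 reaches 0.78, against 0.22.

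The next question was where the domains lie. Arms were taken as the outer 25% of each autosome at either end and the centre as the middle 50%, and X was not divided. The centres held 138 domains, 3.44 per Mb, the arms 50, or 1.27 per Mb, and the measured part of X 26, or 1.61 per Mb. Of the 188 autosomal domains 73.4% were thus in centres. No interval is given for this share, since the domains come from the same library and are not replicates. Domains took up 2.99% of the centres, 1.03% of the arms and 1.11% of X. The share of enriched windows was 6.23% in centres, 2.56% in arms and 2.53% on X, against 4.1% over all. The median log2 ratio of a domain was 2.35 in centres, 2.38 in arms and 2.11 on X, and the median lengths were 7.5, 7 and 6 kb. The longest was 29 kb in the centres, 17.5 kb in the arms and 16.5 kb on X.

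When the input was changed, the position of domains moved less than that of enriched windows, which turned round. With the H3K9me2 input the share of enriched windows became 9.73% in centres, 11.6% in arms and 7.98% on X, and 46.0% of autosomal enriched windows lay in centres, against 71.3% with the own input. Of the autosomal domains called anew with that input 64.5% lay in centres. The 2 inputs of met-2 were weakly and inversely related over the kept windows (Spearman's rho of -0.27). The H3K9me3 inputs labelled met-2 and set-25 were closely related (rho of 0.96). The H3K9me3 ChIP of met-2 followed its own input (rho of 0.82) and was inversely related to the H3K9me2 input (rho of -0.25). The part of these relations in the position was not tested. The widening of each arm to 33.3% of the autosome left 53.2% of autosomal domains in the narrower centres.

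All 5 autosomes had more domains in their centre than in both arms together, but the arms were unlike each other. The left arm, centre and right arm held 2, 25 and 6 domains on I, 7, 26 and 6 on II, 2, 21 and 1 on III, 8, 19 and 1 on IV, and 4, 47 and 13 on V. V had the most, 64 domains or 3.21 per Mb, with 4.66 per Mb in its centre. The other chromosomes had 39 on II (2.64 per Mb), 33 on I (2.26), 24 on III (1.80), 28 on IV (1.67) and 26 on X (1.61). The right arm of IV was the poorest region, with 0.24 domains per Mb and 0.589% of its windows enriched.

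Along the autosomes, split into 10 equal parts from the left end, the share of enriched windows was 1.76% in the first part and 2.69% in the last, with 7.47% and 7.89% in the fifth and the sixth. The domains numbered 5, 9, 23, 20, 33, 38, 17, 19, 13 and 11 in these parts. Single chromosomes also had high values away from the middle. I had its highest share, 7.67% with 7 domains, in part 3, and 5.48% in its last. V had 7.40% with 8 domains in part 3 and 8.78% with 9 domains in its ninth, and II had 6.42% in its second. IV had 0.211% and 0 domains in its ninth part. Near the ends, the first domain of II began 51.5 kb from the left end, and the last of I ended 175.4 kb before the right end, whereas the first of I lay 2054.5 kb in.

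**Figure D4:**
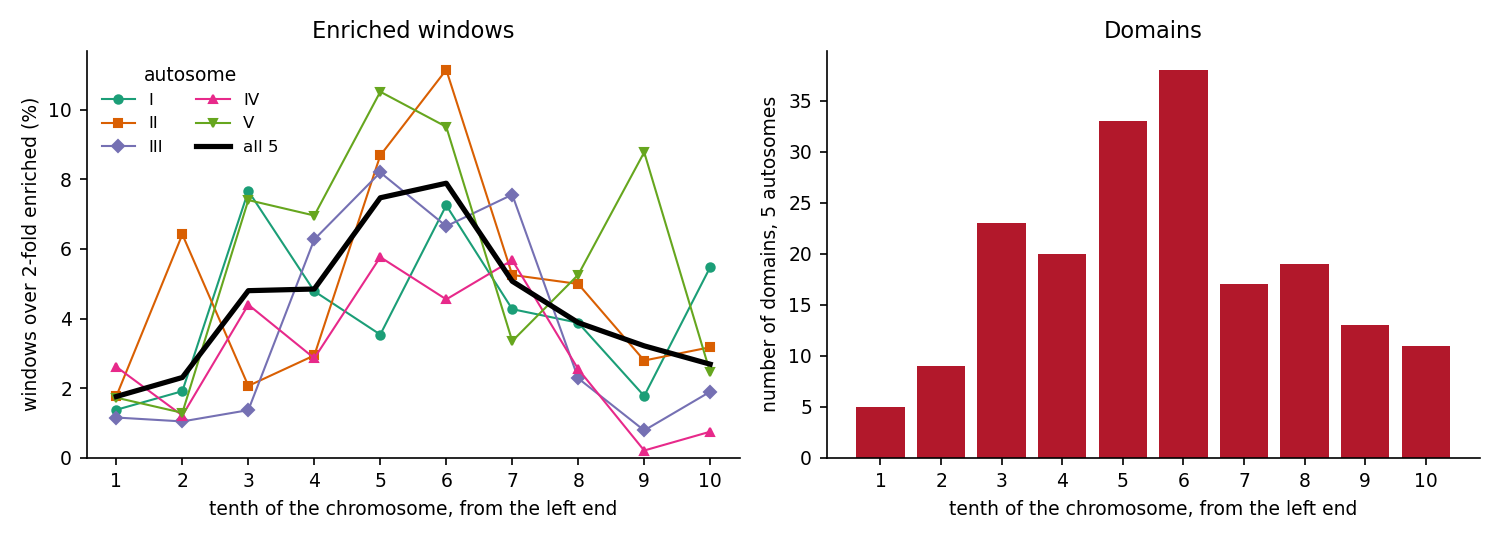
Left, percent of kept windows with H3K9me3 over 2-fold above input in met-2 (y axis) in each of 10 equal parts of the autosomes from the left end (x axis), for each autosome (thin lines) and all 5 together (black). Right, number of H3K9me3 domains in the same parts of the 5 autosomes, with 33 and 38 domains in the fifth and the sixth part and 5 and 11 in the first and the last.

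Spacing between domains varied widely. The 208 gaps between neighbouring domains of a chromosome had a median of 196.25 kb, quartiles of 62.25 and 506.75 kb, and a largest value of 3198.5 kb. The median gap was 150 kb inside centres (133 gaps) and 362.5 kb inside arms (40 gaps). By chromosome it ran from 142 kb on V to 384.5 kb on IV. At the other extreme, 23 gaps (11.1%) were under 10 kb and 47 (22.6%) under 50 kb. Joined over gaps under 50 kb, 83 domains (38.8%) formed 36 groups, 28 of which were pairs, and 131 domains stood alone. The largest group was 5 domains in V:6121001-6208000, where 66.5 of 87 kb were in domains and where one of the gaps holds the highest kept window. A group of 4 lay in the right arm of V, at V:17052501-17153500. Domains less than 50 kb apart differed in level by a median of 0.23 log2 units (47 pairs), against 0.64 at 50 to 200 kb (59 pairs) and 0.39 at 200 kb or more (102 pairs).

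The closest neighbours were nearly joined. In each of the 3 closest pairs the gap was a single window. Between V:12019001-12024000 and V:12024501-12031500 that window had been left out for low input counts and had a log2 ratio of 3.18. Between X:11472501-11478500 and X:11479001-11485000 it was at 0.91, and between X:12744501-12750000 and X:12750501-12756500 at 0.84, both just under the threshold. In the group of 5, the gap of 21 windows between the domains that end at 6172000 and begin at 6182501 on V held 10 windows left out for low input counts, and its windows ran from 1.31 to 4.90.

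Long stretches had no domain. The longest ran on X from 12756501 to the last measured window at 16493500, 3737 kb with 0.65% of its windows enriched. The next were IV:13114001-16312500, of 3198.5 kb with 0.541% enriched, and III:10183001-13230000, of 3047 kb with 1.10% enriched. All of these lay in the right part of their chromosome. Their shares were below the 4.1% of the whole genome, but that share includes the domains, which held 45.5% of the enriched windows. A stretch chosen for having no domain is therefore low in part by that choice.

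The domains were also read in the other ChIP libraries, which had no part in choosing them, although the floor on kept windows used all 4 inputs. H3K9me2 in met-2, over its own input, was above 0 in 214 of 214 domains, against 47.3% of the 17413 stretches. Its level was low, with a median log2 ratio of 0.71 and a range of 0.28 to 1.41, and 24 domains were above 1, against 0.241% of the stretches. The result changed with the input, and the cause was not tested. The H3K9me3 input of met-2, which also served to choose the domains and was itself raised inside them, was put in its place. Then 129 of 214 domains were above 0, against 63.2% of the stretches. The median was 0.18 in the domains and also 0.18 in the stretches, and 4 domains were above 1, against 0.488% of the stretches. Domains high in H3K9me3 had more H3K9me2 over its own input (Pearson's r of 0.72 and Spearman's rho of 0.71 over 214 domains, each ChIP with its own input). This relation was not worked out with H3K9me2 over the H3K9me3 input. Both marks were measured in separate libraries of the same strain, and how far each antibody binds the other mark was not tested.

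The longest domain, II:7725001-7754000, had a log2 ratio of 0.71 for H3K9me2 in met-2 over its own input and 0.69 over the H3K9me3 input. The domain III:6746501-6773000 had 1.19 over its own input and 0.37 over the H3K9me3 input. The highest, V:8477001-8486500, had 1.39 over its own input and -0.33 over the H3K9me3 input.

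H3K9me2 in set-25 was high in many domains of the arms and in few of the centres. Over its own input, the only one tried, it was above 1 in 26 of the 50 arm domains, against 23.6% of stretches in arms, in 3 of 26 domains on X, against 1.89% of stretches there, and in 2 of 138 domains of the centres, against 0.627% of stretches there. The medians were 1.08 in arm domains, -0.19 in X domains and -1.38 in centre domains, against -0.12, -1.42 and -1.73 for the stretches. In all, 31 of 214 domains were above 1, against 9.91% of all stretches. The 2 centre domains above 1 were IV:11973501-11993000, at 1.23, and V:14757001-14766000, at 1.27. In the right arm of V, V:17133501-17145000 was at 3.28. In the H3K9me3 library labelled set-25, the domains had a median log2 ratio of 0.05 and a highest value of 0.85. Of them 116 were above 0, against 42.9% of the stretches, and 0 of 214 above 1, against 0.304%. Since this library had no counts in 16520 kept windows, its low values are not read as absence of the mark.

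**Figure D5:**
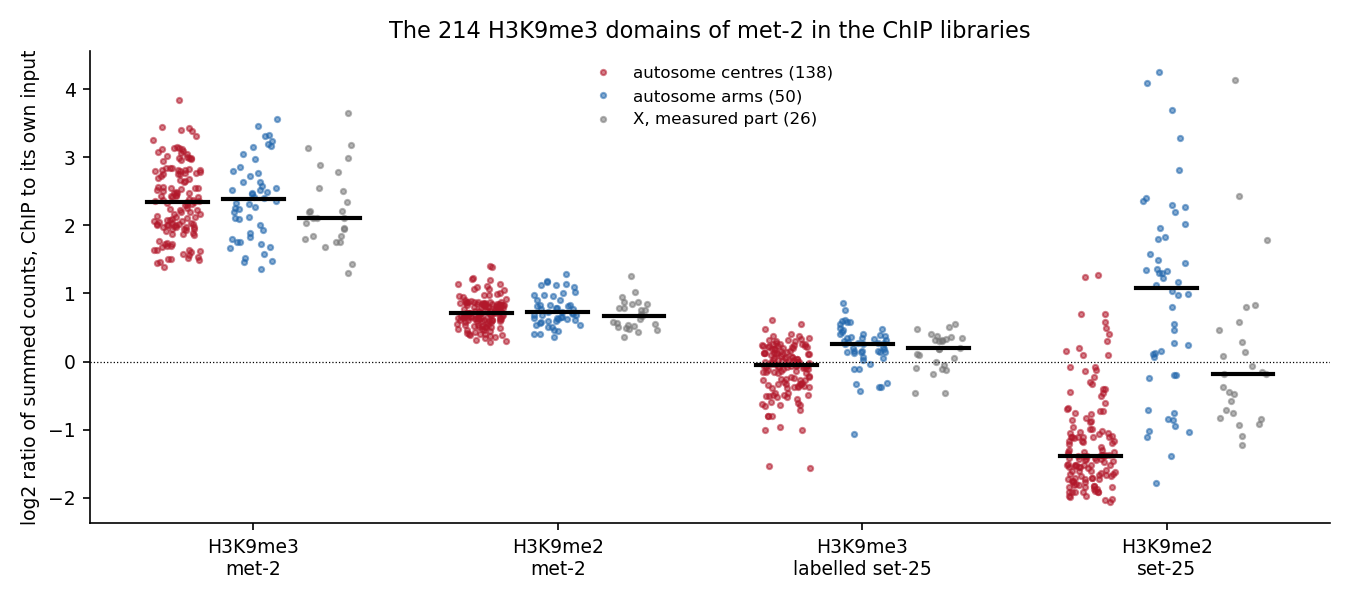
Log2 ratio of summed ChIP counts to summed counts of its own input (y axis) in each of the 214 H3K9me3 domains of met-2, for 4 ChIP libraries (x axis), with domains in autosome centres (red), autosome arms (blue) and on X (grey) and their medians as black bars. The domains were chosen on the first library, where all lie above 1; H3K9me2 in set-25 has medians of -1.38 in centres, 1.08 in arms and -0.19 on X.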

How the data were processed

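Libraries were sequenced as paired ends, per the series' design text. The authors deposited a table of whole-number counts per 500 bp window, with 1 column per group; that they are raw was inferred from their whole values and unequal totals. No label or header used here names the aligner, the treatment of duplicates, the genome build or any pooling of replicates. Reads that map to several places may raise or lower counts in repeats. Columns were matched to groups by name, and 0 columns were left unmatched. The last line was incomplete and was left out, so X ends at 16493500.

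Counts were scaled to the column total (CPM) and a pseudocount of 0.1 CPM was added for windows, none for summed regions. A window needed 20 counts in every input, which removed 6947 windows. Enriched means a log2 ratio above 1. Domains are at least 10 adjacent enriched windows, and a missing or left-out window ends a run. Named regions were the 5 longest and the 5 highest domains, the longest of each chromosome, the 3 closest pairs and the 3 longest stretches with no domain, with the highest windows, the largest groups and the lowest domain added after their values were seen. The members, thresholds and lists were chosen with earlier results of these data known. With 1 column per group no test was planned or run. The reading of H3K9me2 in met-2 over the H3K9me3 input was added after seeing the data. Alternatives were other thresholds, floors, pseudocounts, inputs, run lengths and arm sizes. Python 3.11.15, numpy 2.4.6, pandas 2.3.3 and scipy 1.17.1 were used, and the steps were tested on simulated data.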

Additional observations from a re-analysis of the deposited data

How the results depend on the processing

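Thresholds set most of the counts. At a log2 threshold of 0.5 there were 15347 enriched windows, 67.4% of the autosomal ones in centres, and 356 domains with a median gap of 124.5 kb. At a threshold of 2 these values were 2798, 73.2%, 83 and 502.5 kb. Ratios centred on their median gave 12087 enriched windows, 69.3% of autosomal ones in centres, and a gap of 139.75 kb. Domains of at least 20 windows numbered 51, with a median length of 12 kb and a gap of 898.5 kb.

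The position of enriched windows changed with the input. The H3K9me2 input of met-2 gave 19530 enriched windows, of which 46.0% of the autosomal ones lay in centres, a reversal of the 71.3% reported, and 64.5% of domains in centres. It gave 213 domains, and 161 of the 214 domains (75.2%) were covered by them over at least 50% of their length. No input gave 21676 enriched windows, 61.02% in centres, and 350 domains with a gap of 129.75 kb. The sum of the 4 inputs gave 68.8% of enriched windows in centres. A floor of 50 counts gave 73.4% of enriched windows and 78.8% of autosomal domains in centres. Arms of 33.3% gave 51.1% of enriched windows and 53.2% of domains in centres. Among alternatives added after seeing the data, the threshold over both met-2 inputs gave 70.1% of enriched windows in centres and a gap of 274.5 kb. A floor on the own input alone, also added then, gave 69.99% of enriched windows and 72.6% of autosomal domains in centres. The causes were not tested.

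The other alternatives left the domain count at 163 to 296, within 1.5 times the 214 reported. The median length moved only with the minimum of 20 windows. It is bounded from below by the minimum run length, so its steadiness says little about the mark. Over all 1820 runs of enriched windows the median length was 1 kb. No paired analysis was possible because there is 1 column per group, and 1 of the 8 column names ends in a number while the other 7 carry none. Leaving out a replicate could not be run for the same reason. The effect of depth was not tested.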
